A study of Mus musculus with 20 samples.

Results

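The genes described here encode the enzymes that write and erase methylation of lysine 27 of histone H3 (H3K27). They are the demethylases Kdm6a and Kdm6b and 6 genes of Polycomb repressive complex 2 (PRC2), namely Ezh1, Ezh2, Eed, Suz12, Jarid2 and Rbbp7. They were chosen by symbol, and the table of normalized counts held a row for 8 of 8 of them among its 14456 genes. The choice was made with the fall of Kdm6b under high-glucose exosomes already known, so the values of that contrast are given as a description and were not tested for these genes.

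The 20 libraries were made from total RNA of bone marrow-derived macrophages (BMDM), grown with M-CSF for 6 days from wild-type C57BL/6 mice. The study's methods give the mice as 8 weeks old for the culture, and elsewhere as male C57BL/6J of 8 to 12 weeks. In the first experiment, BMDM were cultured for 24 h in high glucose (25 mM, n = 4 libraries) or in normal glucose (5.5 mM, with 19.5 mM mannitol for equal osmolarity, n = 4 libraries). In the second, naive BMDM received PBS, exosomes from BMDM kept in normal glucose (BMDM-NG-exo) or exosomes from BMDM kept in high glucose (BMDM-HG-exo) for 24 h, at 2000000000 particles per ml and with 4 libraries in each group. The 3 exosome groups share 4 date labels, with 1 library of each group per date. The cells are primary cultures with no transgene or deletion. The sources used here do not say whether the libraries of a glucose group came from separate mice, so the p-values there measure the spread between these libraries, which may be partly technical.

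PRC2 places methyl groups on H3K27, a mark of silenced genes. Ezh1 and Ezh2 are its alternative catalytic subunits, Eed and Suz12 form the core that makes the enzyme active, Rbbp7 and its paralog Rbbp4 bind histones, and Jarid2 is an accessory subunit that helps to bring the complex to its targets. Kdm6a (also called Utx) and Kdm6b (also called Jmjd3) are JmjC-domain demethylases that remove the mark, and Kdm6b is known as a gene that macrophages induce in inflammatory and alternative activation. Uty is the Y-linked homolog of Kdm6a and has little demethylase activity.

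A total of 34016445 to 56310712 reads fell on listed genes per library. All 7 of the macrophage markers examined (Adgre1, Csf1r, Cd68, Itgam, Lyz2, Mertk and Fcgr1) were listed, and their summed normalized counts ranged from 620993 to 868348 per library. Markers of neutrophils (3 of 5 listed) summed to at most 145 normalized counts in a library, those of fibroblasts (3 of 5) to at most 349, those of endothelial cells (2 of 3) to at most 456, and Cd4, the T cell marker listed of 4, to at most 117. None of the markers of dendritic cells (4), B cells (3) or erythroid cells (3) was listed. The summed macrophage markers were higher in high glucose (798427 to 868348) than in normal glucose (620993 to 695733), and lower with BMDM-NG-exo (710680 to 766373) than with PBS (785780 to 831767), without overlap in either case, and their part in the differences given here was not tested. In RNA from bulk cultures, fewer cells that express a gene and less RNA per cell cannot be told apart.

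In GRCm38, Kdm6b lies on chromosome 11 at 69398508 to 69413675 on the minus strand, and Ezh1 (101191115 to 101226463, minus) and Suz12 (79993106 to 80034123, plus) lie on the same chromosome. Kdm6a (18162575 to 18279936) and Rbbp7 (162760402 to 162779092) lie on the plus strand of chromosome X, Jarid2 on the plus strand of chromosome 13 (44729474 to 44921643), Ezh2 on the minus strand of chromosome 6 (47530139 to 47595341) and Eed on the minus strand of chromosome 7 (89954654 to 89980983). Kdm6a, Kdm6b, Ezh1, Suz12 and Jarid2 overlapped no other listed gene. Eed overlapped Gm45120 on its own strand, so reads could be shared between them. Ezh2 overlapped Gm26625, Eed E230029C05Rik and Rbbp7 Txlng on the opposite strand, which the stranded counting keeps apart.

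Several of these genes are paralogs, and a reader of the counts needs to know whether a read can tell them apart. The most alike coding stretches of 1 read length (100 bases) are therefore shown for the 2 demethylases, for the 2 catalytic subunits and for Kdm6a with Uty. Capitals mark the bases that differ within a pair, and the sequences are the coding strands of GENCODE M21 transcripts on GRCm38. The Kdm6a stretch joins exon 23 (chromosome X, 18264635 to 18264710) to exon 24 (18269148 to 18269171). The Kdm6b stretch joins exon 17 (chromosome 11, 69401515 to 69401590) to exon 18 (69401354 to 69401377), and they differ at 18 bases:
Kdm6a: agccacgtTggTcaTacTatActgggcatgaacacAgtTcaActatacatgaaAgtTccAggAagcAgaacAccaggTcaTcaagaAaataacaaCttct
Kdm6b: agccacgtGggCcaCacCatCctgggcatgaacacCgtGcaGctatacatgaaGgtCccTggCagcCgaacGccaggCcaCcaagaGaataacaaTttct
The Ezh1 stretch joins exon 18 (chromosome 11, 101194468 to 101194510) to exon 19 (101193750 to 101193806). The Ezh2 stretch joins exon 17 (chromosome 6, 47532902 to 47532944) to exon 18 (47532009 to 47532065), and they differ at 14 bases:
Ezh1: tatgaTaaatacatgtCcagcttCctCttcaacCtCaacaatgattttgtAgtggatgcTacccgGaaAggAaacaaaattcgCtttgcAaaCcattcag
Ezh2: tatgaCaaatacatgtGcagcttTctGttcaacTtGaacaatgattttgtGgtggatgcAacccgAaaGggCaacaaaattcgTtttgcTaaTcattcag
The stretch shared by Kdm6a (exon 13, chromosome X, 18247000 to 18247099) and Uty (exon 13, chromosome Y, 1169133 to 1169232) differs at 1 base:
Kdm6a: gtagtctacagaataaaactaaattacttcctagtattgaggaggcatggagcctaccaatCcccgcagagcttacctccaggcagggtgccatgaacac
Uty: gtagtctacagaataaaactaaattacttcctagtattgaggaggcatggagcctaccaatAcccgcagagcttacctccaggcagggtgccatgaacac
Rbbp4 and Rbbp7 differ at 12 bases in their most alike stretch. None of these 4 pairs shared an identical run of 100 bases in the transcripts compared. A 100-base read without errors thus belongs to 1 gene of a pair, but within the Kdm6a and Uty stretch it is told apart by a single base. The study sequenced both ends of each fragment and trimmed the second read slightly, so the mate can also place a fragment. Neither point was examined here. Kdm6a and Uty were the most alike of the 4 pairs.

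The levels of the 8 genes differed by about an order of magnitude. Exon length here merges the annotated exons of all transcripts of a gene. Other lengths were not tried, so the order and ratios between genes may depend on that choice. On the scale of normalized counts per kb of exon, averaged over 20 libraries, Rbbp7 was highest at 667 ± 41.4 (SD), followed by Ezh1 at 476 ± 15.6, Suz12 at 433 ± 23.0, Eed at 331 ± 28.2, Jarid2 at 320 ± 28.4, Kdm6a at 242 ± 16, Ezh2 at 109 ± 12.8 and Kdm6b at 73.0 ± 14.7. The ranges over libraries overlapped between Ezh1 and Suz12, Eed and Jarid2, Jarid2 and Kdm6a, and Ezh2 and Kdm6b, and not between the other neighbours. Eed was above Jarid2 in 14 of 20 libraries, which leaves their order unsettled, whereas Jarid2 was above Kdm6a in 20, and Ezh1 above Suz12 and Ezh2 above Kdm6b in 19 each. As group means, Jarid2 was above Eed with PBS (354 against 332 per kb) and in normal glucose (335 against 328). Eed was above Jarid2 with BMDM-NG-exo (341 against 296), with BMDM-HG-exo (313 against 286) and in high glucose (343 against 332). The SDs over 20 libraries include such differences between groups.

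**Figure D1:**
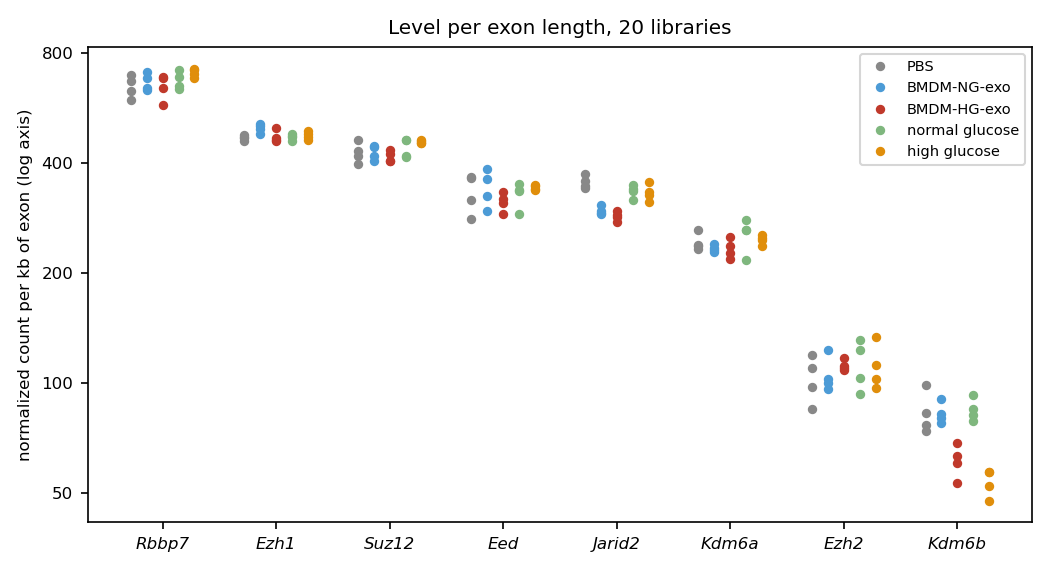
Level of each gene as normalized count per kb of exon (log axis) in the 20 libraries, coloured by group. Rbbp7 lies highest, Ezh2 and Kdm6b lie lowest, and the Kdm6b points of the high glucose and BMDM-HG-exo groups sit below those of the other 3 groups.

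Among the catalytic subunits, Ezh1 predominated over Ezh2. The ratio of their levels per kb was between 4.23 and 4.76 as a mean of each of the 5 groups, and 3.59 at the lowest and 5.51 at the highest in a single library. The demethylases were less far apart in the group means except in high glucose, where the Ezh1 to Ezh2 ratio was 4.32 ± 0.501. Kdm6a exceeded Kdm6b per kb by 2.95-fold ± 0.361 with PBS and 2.83-fold ± 0.128 with BMDM-NG-exo (SD, n = 4 each), and by 3.82-fold ± 0.349 with BMDM-HG-exo. It exceeded Kdm6b by 3.02-fold ± 0.267 in normal glucose and 4.63-fold ± 0.290 in high glucose, while Kdm6a itself had 246 ± 6.65 and 255 ± 26.9 normalized counts per kb in high and normal glucose.

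The mRNA of 1 of the 8 genes, the demethylase Kdm6b, was lower in high than in normal glucose, and that of none was higher. Kdm6b had 363, 397, 397 and 331 normalized counts in the high glucose libraries 1, 2, 4 and 6, and 546, 591, 643 and 567 in the normal glucose libraries 1, 3, 5 and 6. Every high glucose library was below every normal glucose library, with means of 372 ± 31.7 and 587 ± 41.7 (SD, n = 4 each). Kdm6b fell by 36.6%, which is -0.66 on the log2 scale (SE 0.0992, 95% interval -0.86 to -0.46), and its adjusted p-value was 7.13e-06 by limma with Benjamini-Hochberg adjustment over 14425 genes. Of these genes, 13.3% were called in either direction, 7.74% higher and 5.53% lower, and 7.11% had high glucose libraries that were all below the normal glucose ones. Kdm6b stood at rank 237 by p-value. The call held when each library was left out in turn, with log2 fold changes from -0.69 to -0.60 over 8 fits.

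The other 7 genes did not pass the test, and their levels in the 2 glucose conditions overlapped. Kdm6a, the other demethylase, had 2065 ± 55.8 normalized counts in high and 2135 ± 225 in normal glucose, a log2 difference of -0.04 (95% interval -0.16 to 0.08). The catalytic subunits had 3530 ± 84.2 against 3499 ± 63.4 for Ezh1 and 742 ± 107 against 752 ± 116 for Ezh2. For the core, Eed had 1312 ± 19.4 against 1254 ± 101 and Suz12 had 2254 ± 21.8 against 2168 ± 133, and the histone-binding Rbbp7 had 2055 ± 55.2 against 1955 ± 107. Jarid2 had 3222 ± 167 against 3253 ± 125. No log2 fold change of the 7 was further from 0 than 0.0729, and their 95% intervals lay between -0.22 and 0.20. The fall of Kdm6b, taken at the nearer bound of its interval, thus lay outside the interval of each of the other 7 genes, although the difference between genes was not itself tested. The median absolute log2 fold change was 0.0499 over the 8 genes and 0.124 over all genes tested. The latter set includes genes with means down to 10 normalized counts, and genes of matched level were not compared.

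**Figure D2:**
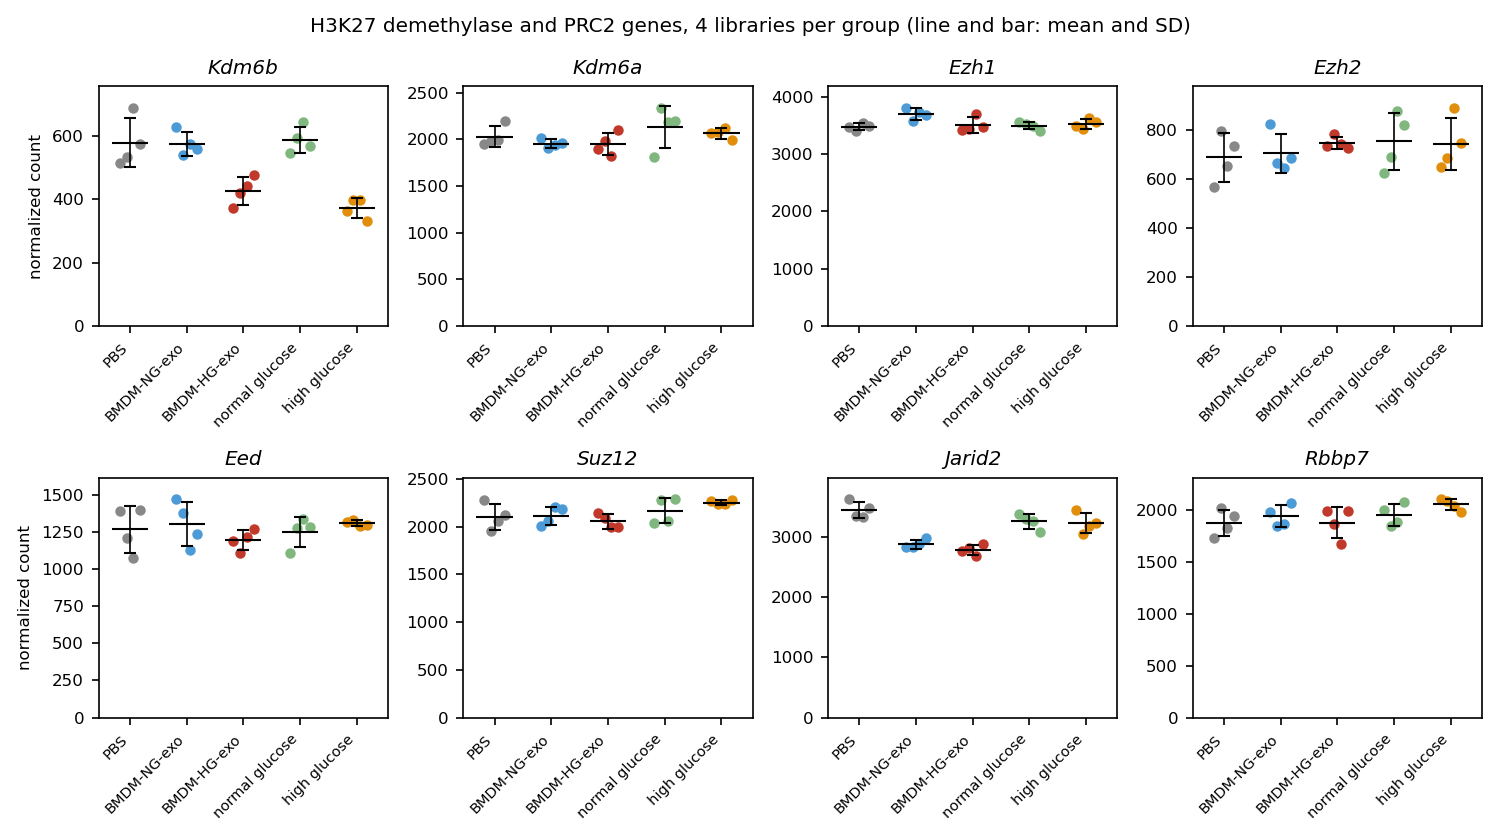
Normalized counts of the 8 genes in 20 libraries (points), with the mean (line) and SD (bar) of each group of 4. Kdm6b is lower in the high glucose and BMDM-HG-exo groups, and Jarid2 is lower in both exosome groups than with PBS, while the groups of the other genes overlap in most cases.

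In macrophages that received exosomes from normal glucose cultures, another gene of the set was lower. With BMDM-NG-exo against PBS, the accessory subunit Jarid2 was called lower and the other 7 genes were not called. Jarid2 had 2821, 2828, 2869 and 2981 normalized counts in the BMDM-NG-exo libraries 1 to 4, and 3617, 3348, 3317 and 3472 in the PBS libraries 1 to 4. The groups did not overlap (2875 ± 73.8 against 3438 ± 137, SD, n = 4 each), and Jarid2 was lower with BMDM-NG-exo on 4 of 4 dates, by log2 differences of -0.36 to -0.21. Jarid2 fell by 16.4%, which is -0.26 on the log2 scale (SE 0.0468, 95% interval -0.35 to -0.16), and limma with Benjamini-Hochberg adjustment gave an adjusted p-value of 0.000472. Calls here needed a size of 0.15 or more on the log2 scale besides an adjusted p-value under 0.05. Of 14413 genes, 3% were called, 0.888% higher and 2.11% lower, and 4.63% had BMDM-NG-exo libraries that were all below those of PBS. Leaving out each of the 12 exosome libraries in turn gave log2 fold changes between -0.28 and -0.23, and the call held each time. In the glucose experiment the Jarid2 level ranged from 3038 to 3440 normalized counts in high glucose and from 3082 to 3380 in normal glucose, so that those groups overlapped.

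Kdm6b had similar levels with BMDM-NG-exo and with PBS. It had 628, 539, 572 and 558 normalized counts with BMDM-NG-exo and 514, 534, 688 and 575 with PBS. BMDM-NG-exo was higher on 2 dates and lower on 2, and the log2 fold change was -0.001 with a 95% interval from -0.21 to 0.21. These libraries were also the controls in the contrast that chose Kdm6b. For Kdm6b the estimate and its interval are therefore a description and not a test. Ezh1 had 3703 ± 101 normalized counts with BMDM-NG-exo and 3480 ± 56.2 with PBS. These groups did not overlap, and BMDM-NG-exo was higher on 4 of 4 dates, but Ezh1 did not pass (log2 difference 0.09, limma adjusted p-value 0.371). Of all genes, 8.27% had groups that did not overlap in this comparison. Ezh2, Eed, Suz12, Rbbp7 and Kdm6a had log2 fold changes between -0.05 and 0.05, and the 95% intervals of the 7 genes other than Jarid2 lay between -0.21 and 0.23.

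**Figure D3:**
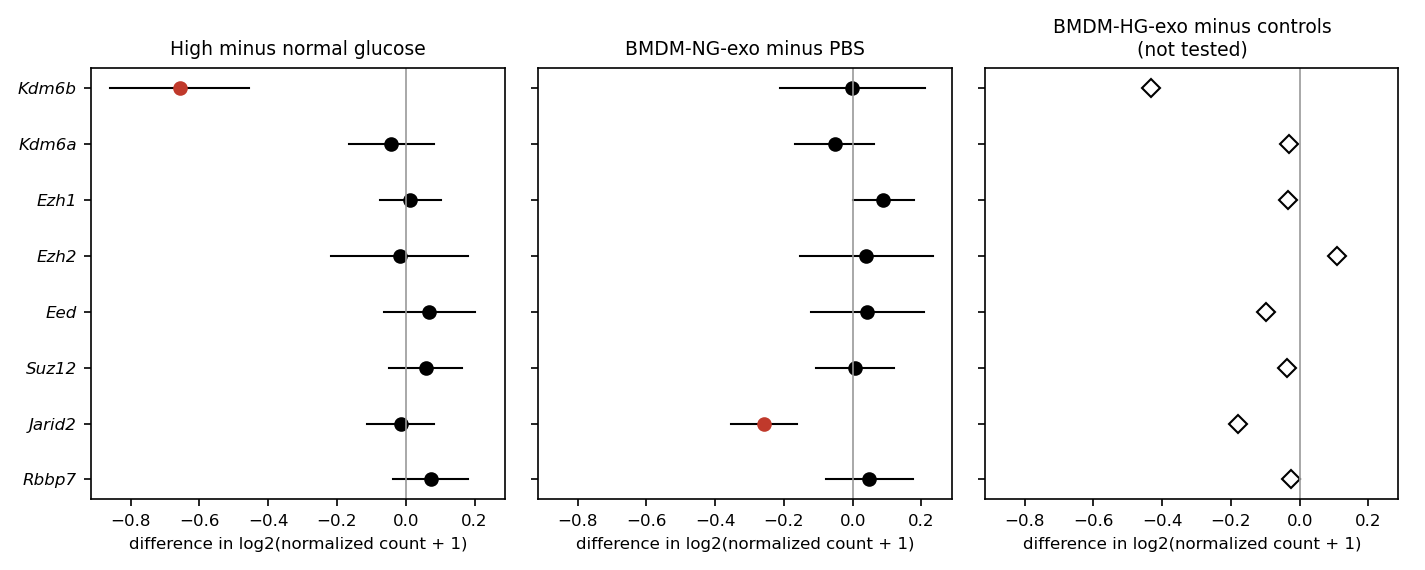
Difference in log2(normalized count + 1) for each gene in 3 comparisons. Circles are limma estimates with 95% intervals (red where called: Kdm6b at -0.66 in high glucose and Jarid2 at -0.26 with BMDM-NG-exo), and open diamonds are BMDM-HG-exo minus the combined controls, shown without a test.

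BMDM-HG-exo was set against the 8 libraries that had PBS or BMDM-NG-exo. This contrast chose Kdm6b, and its values are therefore descriptive. Kdm6b had 370, 419, 440 and 476 normalized counts in the BMDM-HG-exo libraries 1 to 4, all below the lowest of the 8 controls (514). The means were 426 ± 44.0 (SD, n = 4) and 576 ± 56.6 (SD, n = 8), a difference of -0.43 on the log2 scale and a ratio of 0.740. The difference was also -0.43 against PBS alone and -0.43 against BMDM-NG-exo alone, comparisons that share the BMDM-HG-exo libraries. On each of the 4 dates the BMDM-HG-exo library was below the mean of its 2 controls, by log2 differences of -0.62 to -0.25, and without any single library the difference stayed between -0.49 and -0.37. Over all genes, 0.201% were called in this contrast, 0.0694% higher and 0.132% lower. In 1.17% of genes the BMDM-HG-exo libraries did not overlap the controls, and in 0.597% they were all below them.

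The PRC2 genes had smaller differences in the same contrast. Jarid2 had 2757, 2803, 2675 and 2874 normalized counts with BMDM-HG-exo. These values overlapped those of BMDM-NG-exo and lay below those of PBS, with log2 differences of -0.05 and -0.31 from these groups, so the Jarid2 level was low with both kinds of exosome. Against the combined controls the log2 difference of Jarid2 was -0.18, that of Ezh2 0.11 (746 ± 24.5 against 695 ± 84.9 normalized counts) and that of Eed -0.10 (1200 ± 68.1 against 1289 ± 144). Kdm6a, Ezh1, Suz12 and Rbbp7 lay between -0.04 and -0.02, and the BMDM-HG-exo values of all 7 genes other than Kdm6b overlapped those of the controls.

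**Figure D4:**
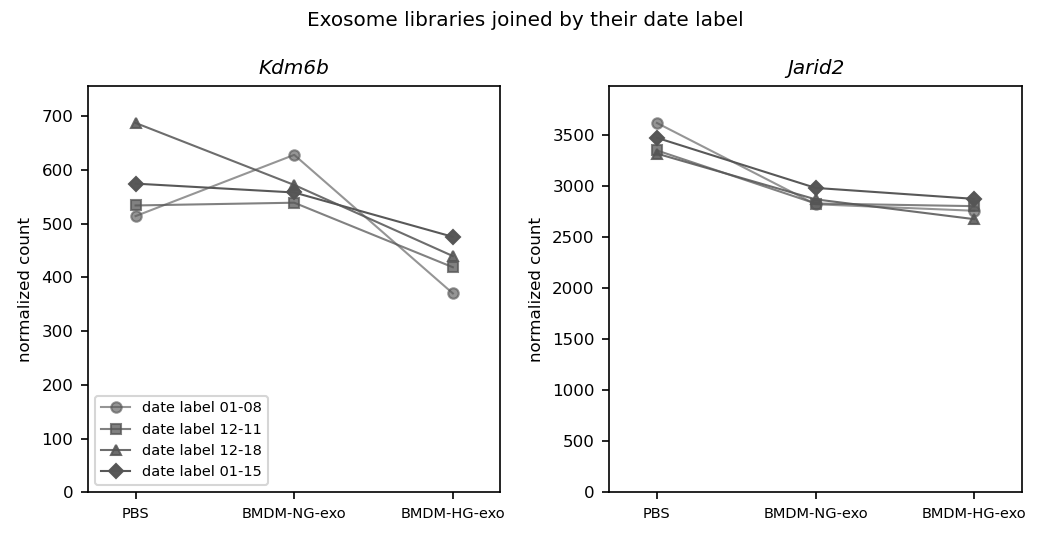
Normalized counts of Kdm6b and Jarid2 in the exosome experiment, with libraries of the same date label joined by a line. Kdm6b is lowest with BMDM-HG-exo on 4 of 4 dates, and Jarid2 is lower than with PBS on 4 of 4 dates with either exosome.

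Paralogs outside the 8 genes were read for comparison. Rbbp4, which stands in for Rbbp7 in PRC2, had 3261 ± 41.3 normalized counts in high and 3069 ± 109 in normal glucose, without overlap, but did not pass (log2 fold change 0.09, limma adjusted p-value 0.225). In all genes, 16.3% had glucose groups that did not overlap. Uty had 2056 ± 122 normalized counts with BMDM-NG-exo and 1815 ± 195 with PBS, and did not pass (log2 difference 0.18, limma adjusted p-value 0.158). With the date as a replicate block in limma the same difference had an adjusted p-value of 0.0449, so that the call on Uty depends on the pairing by date. The ratio of Kdm6a to Uty per kb was 1.32 ± 0.157 with PBS and between 1.04 and 1.12 in the means of the other 4 groups.

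The wider pathway was followed through 8 lists of 112 other genes, of which 105 were measured and tested. In high glucose few genes of the chromatin lists were called, where 13.3% of all genes were called in either direction. At that share a short list could hold none. None of 8 PRC2 accessory genes, 8 genes of the MLL3/MLL4 complex to which Kdm6a belongs and 21 other JmjC proteins was called. Those with the smallest p-values were Rbbp4 among the accessory genes, Kmt2d in the MLL3/MLL4 complex (log2 fold change 0.06) and the H3K4 demethylase Kdm5b among the JmjC proteins (-0.15), with limma adjusted p-values of 0.225, 0.315 and 0.0721. Among 23 genes of Polycomb repressive complex 1, which binds methylated H3K27, the polyhomeotic subunit Phc2 was called higher (3155 ± 47.2 against 2856 ± 219 normalized counts, log2 fold change 0.15, limma adjusted p-value 0.0486), and L3mbtl2 (0.23) and Cbx2 (-0.47) did not pass. The Phc2 call was lost without any 1 of 6 of the 8 libraries, and in 7 of 11 other alternatives, with adjusted p-values from 0.0507 (DESeq2) to 0.232 (limma with the replicate block). Of 6 genes reported here for H3K27 acetylation and its removal, none was called.

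Some macrophage genes that have been linked to Kdm6b were also lower in high glucose, and whether this relates to Kdm6b was not tested. Of 6 genes on that list, 4 were listed in the table. Of these, 2 were called, both lower, where 5.53% of all genes were called lower. Mrc1, the mannose receptor, had 8211 ± 664 normalized counts in high and 11360 ± 832 in normal glucose (log2 fold change -0.47, SE 0.0480, limma adjusted p-value 3.84e-09). Bmp2, a secreted growth factor, had 292 ± 51.0 and 461 ± 70.3 (log2 fold change -0.66, SE 0.128, limma adjusted p-value 0.000307), and its call was lost without the variance trend (limma adjusted p-value 0.0645). The transcription factor Irf4 (-0.30, adjusted p-value 0.151) and the chitinase-like Chil3 (-0.42, adjusted p-value 0.409) did not pass by limma. The median log2 fold change of the 4 genes was -0.44, against -0.003 over all genes tested, and with 4 genes the list is small. With BMDM-NG-exo against PBS none of the 4 was called, where 3% of all genes were called. With BMDM-HG-exo their differences from the combined controls ran from -0.19 to 0.03.

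Induction of Kdm6b in macrophages has been tied to NF-kappaB. Of 19 NF-kappaB response genes tested in high glucose, 7 were called higher, none lower and 12 not called, where 7.74% of all genes were called higher. The median log2 fold change of the 19 was 0.24, and single values ran from -0.09 to 1.28. Tnf, an inflammatory cytokine, had 538 ± 61.0 normalized counts in high and 323 ± 45.6 in normal glucose (log2 fold change 0.74, limma adjusted p-value 8.64e-06). The NF-kappaB inhibitor Nfkbia (3077 ± 51.6 against 2325 ± 103, log2 fold change 0.40) and the coactivator Nfkbiz (2304 ± 49.3 against 1637 ± 214, 0.50) were also called, and these 3 calls held without each library in turn. Nfkb1, Tnfaip3, Ccl4 and Birc3 rose by 0.13 to 0.31 on the log2 scale, and each of these 4 lost its call without high glucose library 6 (limma adjusted p-values of 0.0556 to 0.256), and without 1 to 5 other libraries. All 4 calls were also lost without the variance trend (limma adjusted p-values of 0.0541 to 0.198) and with the replicate block (0.0731 to 0.117). Quantile normalization lost those on Nfkb1 (0.0812) and Birc3 (0.174), and the fit of all libraries that on Ccl4 (0.104).

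With BMDM-NG-exo, 9 of the 19 NF-kappaB response genes fell against PBS, none rose and 10 were not called, where 2.11% of all genes were called lower. The list had a median log2 fold change of -0.24 against 0.005 over all genes. Nfkbiz fell by 0.50 and Nfkbia by 0.35 on the log2 scale (limma adjusted p-values 1.98e-06 and 8.50e-05), as did the NF-kappaB subunit gene Nfkb2 by 0.35 and the adhesion molecule Icam1 by 0.28. Birc3, Tnfaip3, Relb, Tnf and Il1b were the other 5. The Tnfaip3 call was lost without PBS library 1 (limma adjusted p-value 0.0612), the Tnf and Il1b calls without any 1 of 3 of the 12 libraries, and the Relb call without any 1 of 5. Without the variance trend, Nfkbia (limma adjusted p-value 0.0594), Nfkb2 (0.0904), Tnf (0.152), Il1b (0.158) and Relb (0.214) were not called. In the fit of all libraries the Il1b call was lost as well (limma adjusted p-value 0.0772). No gene of the chromatin lists was called in this comparison, where 3% of all genes were called. With BMDM-HG-exo, compared with the 8 controls, none of the 105 list genes was called. That is near the share over all genes, 0.201%.

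**Figure D5:**
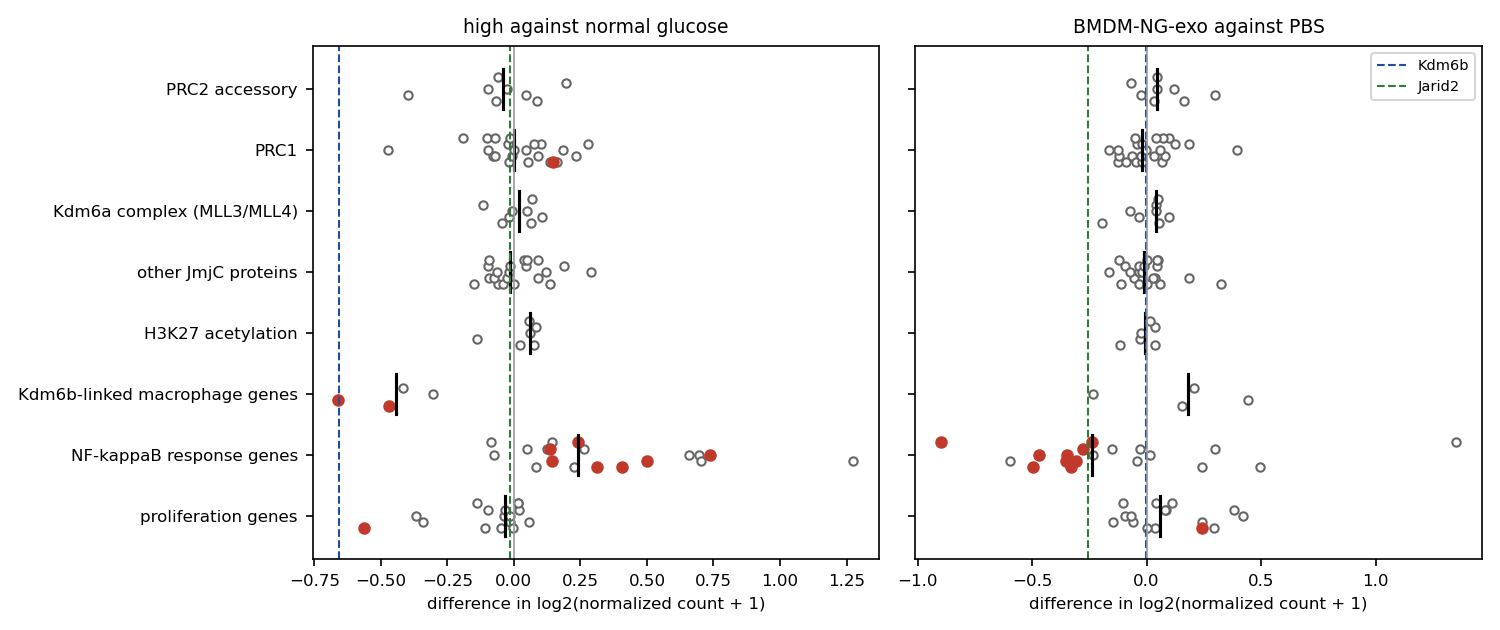
Difference in log2(normalized count + 1) of the list genes reported here (points, red where called) by list, with the median of each list (black line) and the values of Kdm6b and Jarid2 (dashed lines). In high glucose 7 NF-kappaB response genes are higher, and with BMDM-NG-exo 9 are lower, while the Polycomb, MLL3/MLL4 and JmjC lists lie around 0.

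Proliferation genes were included because Ezh2 levels often follow cell division. Of 16, 1 was called in each comparison. Of all genes, 13.3% were called in glucose and 3% for BMDM-NG-exo against PBS. Birc5 was lower in high glucose (155 ± 5.41 against 233 ± 46.2 normalized counts, log2 fold change -0.56, limma adjusted p-value 0.0142), a call lost without normal glucose library 3 or 5 (adjusted p-values 0.0647 and 0.0515 by limma), without the variance trend (0.0758) and with the replicate block (0.448, log2 fold change -0.38). Mki67 was higher with BMDM-NG-exo (5031 ± 387 against 4248 ± 98.0, log2 fold change 0.24, limma adjusted p-value 0.00103), but was not called without the variance trend (limma adjusted p-value 0.1003). Ezh2 had no called difference in either comparison.

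The genes whose levels followed Kdm6b most closely over the 20 libraries were Pde3b (Pearson r 0.878), Sulf2 (0.859), Ap1b1 (0.839), Slc43a2 (0.839) and Gab1 (0.810), out of 11718 genes whose mean was 50 normalized counts or more. Pde3b, a phosphodiesterase, had means of 2562 normalized counts with PBS, 2406 with BMDM-NG-exo, 2067 with BMDM-HG-exo, 2721 in normal glucose and 1788 in high glucose, the same order of high glucose below BMDM-HG-exo below the rest as Kdm6b. Those most like Ezh2 were Gm2000 (0.797), Fam32a (0.738), Alg8 (0.707), Ppm1d (0.673) and Sirt5 (0.668). These correlations describe libraries that share groups and dates, and they were not tested.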

How the data were processed

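Long RNA libraries were prepared with a stranded total RNA kit. The authors aligned reads to GRCm38 with STAR, obtained gene counts from featureCounts and scaled them by DESeq2 median-ratio size factors, so the deposited signal is a normalized count with 1 factor per library. The authors tested with DESeq2. The deposited unit is the normalized count, so limma on those values was the main test here and DESeq2 on recovered reads an alternative. Reads were recovered from the smallest step of each column (100% of values whole, tolerance 0.001), the lowest gene median was 11 reads, and 14421 of 14456 genes had a GENCODE M21 entry, the source of names, exon lengths and positions. The members and lists were chosen with earlier results of these data known. The main test was limma 3.58.1 (R 4.3.3, eBayes with trend) on log2(normalized count + 1), two-sided, with Benjamini-Hochberg adjustment over genes whose mean reached 10. The 8 glucose and 12 exosome libraries were fitted separately. Calls needed an adjusted p-value under 0.05, and in exosome libraries also a log2 difference of 0.15 or more in size. The scripts were tested on simulated data. The main fits had no covariate and did not pair libraries. The date label of the exosome libraries entered only the replicate block alternative and the differences within a date. Same-date deviations correlated weakly (mean r 0.0118 in 12 pairs, -0.00392 in 36 other pairs). Genes named were the members, Rbbp4 and Uty, macrophage markers, up to 4 genes per list with the smallest p-value in the glucose comparison, list genes called with BMDM-NG-exo, and the 5 genes most correlated with Kdm6b and with Ezh2; the remaining called list genes (Tnfaip3, Ccl4 and Birc3 in glucose) were named after their values were seen. Alternatives were a pseudocount of 10, other filters, TMM factors, quantile normalization, no trend, edgeR 4.0.16, DESeq2 1.42.0, the replicate block, all libraries in 1 fit, and each library left out. The result of 1 list gene is not reported here, although counts over all lists include it. Promoter sequences were held for 7 of the 8 genes and not used. Small RNA, mouse tissue, human cell and protein data were not analysed here.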

Additional observations from a re-analysis of the deposited data

How the results depend on the processing

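The calls on Kdm6b in high glucose and on Jarid2 with BMDM-NG-exo held under each alternative run, at limma adjusted p-values of at most 0.0111 and 0.0324, both without the variance trend. Under every setting 1 of 8 genes was called in each comparison. The main fits called 13.3% of all genes in glucose and 3% for BMDM-NG-exo against PBS, so in glucose 1 of 8 is near the share over all genes. Other results moved more. With the replicate block in the glucose libraries, which share only 2 numbers, the genes called fell from 1914 to 788 and the pathway genes from 12 to 6. The same-numbered libraries there correlated at a mean r of 0.00844 (2 pairs) against -0.00121 (14 other pairs). Without the trend these counts were 654 and 5, and for BMDM-NG-exo against PBS 95 instead of 432 genes and 4 instead of 10 pathway genes. For BMDM-HG-exo against the combined controls 29 genes became 52 with a pseudocount of 10 and 19 with quantile normalization, and, in alternatives chosen after seeing the data, 1 without the trend and 127 with DESeq2. Among the 8 members, Rbbp4, Uty and the list genes named for BMDM-NG-exo against PBS, the date block changed the call on Uty alone, and over all genes it called 505 instead of 432.

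Without single libraries the genes called ranged from 1370 to 2027 in glucose and from 292 to 453 for BMDM-NG-exo against PBS. They ranged from 1 (without BMDM-HG-exo library 1) to 204 (without BMDM-NG-exo library 3) in the BMDM-HG-exo contrast. Pathway genes ranged from 6 (without high glucose library 6) to 16 in glucose and from 7 to 13 with BMDM-NG-exo. Small differences that were never called changed sign. In glucose the replicate block gave log2 fold changes of 0.0229 for Kdm6a, 0.0468 for Jarid2 and 0.115 for Chil3, and quantile normalization gave -0.0375 for Ezh1. Over single libraries left out, glucose values ran from -0.108 to 0.0598 for Ezh2, -0.0466 to 0.0133 for Jarid2, -0.118 to 0.0043 for Kdm6a and -0.000162 to 0.0261 for Ezh1. Values for BMDM-NG-exo against PBS ran from -0.0539 to 0.0856 for Kdm6b, -0.0282 to 0.0455 for Suz12, -0.0508 to 0.114 for Ezh2 and -0.0363 to 0.108 for Eed. Against the combined controls, where the members were not tested, BMDM-HG-exo values ran from -0.0665 to 0.00123 for Kdm6a and -0.0532 to 0.0306 for Rbbp7. The cause of these changes was not tested. Apart from left-out libraries, named genes kept direction and call in 728 of the fits, lost a call in 32, gained one in 10 and changed sign in 4. The 95% intervals of Ezh2 reach -0.22 in glucose and 0.23 with BMDM-NG-exo, so differences of that size cannot be told from 0 with 4 libraries per group.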
